A study of Mus musculus with 6 samples.

Results

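Immune checkpoint receptors and the ligands of PD-1 were followed through whole mammary tumours of mice given the class IIa histone deacetylase inhibitor TMP195 or its vehicle. The genes were the ligand genes Cd274 and Pdcd1lg2, the inhibitory receptor genes Pdcd1, Ctla4, Lag3, Havcr2, Tigit and Vsir, and the costimulatory receptor genes Cd28 and Icos. They were picked by name, not by their values. All 10 were measured, each by 1 probe set whose annotation names that gene alone, among 19937 genes represented in the same way. All 6 mice were FVBN females with the MMTV-PyMT transgene, whose age is given as 75 to 90 days. The viral MMTV promoter directs the middle T antigen of polyoma virus to the mammary epithelium, and mammary tumours follow. The 3 mice of the Tumor.DMSO group received DMSO and the 3 of the Tumor.TMP195 group received TMP195 at 50 mg/kg in the peritoneum once a day. The labels state the length of dosing both as 5 days and as 2 weeks. Each mouse gave 1 snap-frozen tumour, and its total RNA went onto 1 Affymetrix array. In the wider study of which these arrays form a piece, TMP195 was also given together with antibodies that block PD-1, so the genes of that axis bear on a treatment pair. No mouse of this series is labelled as having received such an antibody.

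PD-1 is a receptor of activated T cells that recruits phosphatases and dampens signalling from the T cell receptor when it meets PD-L1, the product of Cd274, or PD-L2, the product of Pdcd1lg2. PD-L1 is made by tumour cells, macrophages and other cells and is induced by interferon gamma, whereas PD-L2 is found mostly on dendritic cells and macrophages. CTLA-4 and CD28 compete for the same ligands, CD80 and CD86, with opposite effects on the T cell, and the related receptor ICOS binds its own ligand. LAG-3, TIM-3, TIGIT and VISTA, encoded by Lag3, Havcr2, Tigit and Vsir, are further inhibitory receptors, of which TIM-3 and VISTA are also made by myeloid cells.

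The deposited values were array intensities and are given here as log2 intensity. Probes differ in brightness, so levels are compared between tumours and not between genes. Median intensity over all probe sets lay between 44.8 and 46.4 in the 6 tumours. No gene of the 19937 passed an adjusted p of 0.05 (0% called; limma with Benjamini-Hochberg adjustment), and 502, or 2.52%, had an unadjusted p under 0.05. Of the 10 checkpoint genes, 0 passed either threshold, and each had an adjusted p of 1.00 in limma. Two-sided exact permutation of 3 tumours against 3 cannot go below p = 0.10, and no checkpoint gene reached that value. TMP195 tumour 2 and vehicle tumour 2 stood apart from the other arrays. In TMP195 tumour 2, 150 genes were more than 2-fold above all other tumours, and the 10 skeletal muscle markers averaged 2.73 above their own mean in vehicle tumour 2 and below it in the rest. The checkpoint genes, the counts of the lists set beside them and some of the genes named from those lists are therefore also given without these 2 tumours. For the lists this was added after their values had been seen. The tumours were whole tissue, so fewer cells of a type and less RNA in each cell cannot be told apart.

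The ligand PD-L1 comes first because the PD-1 antibody acts on its contact with the receptor. Cd274 measured 5.18, 4.82 and 5.00 with vehicle and 5.20, 5.43 and 4.93 with TMP195, in the order of tumours 1, 2 and 3 that is kept below. The groups overlapped: TMP195 tumour 2 was the highest of the 6, but TMP195 tumour 3 lay below 2 vehicle tumours. Group means were 5.00 ± 0.18 (SD, n = 3) for vehicle and 5.19 ± 0.25 (SD, n = 3) for TMP195, a log2 difference of 0.19 ± 0.16 (SE) with a 95% interval of -0.19 to 0.56, or 1.14-fold (0.879 to 1.48). The exact permutation test gave p = 0.40. The difference was 0.065 without TMP195 tumour 2 and 0.096 without vehicle tumour 2. It was 0.28 without vehicle tumour 1 and 0.32 without TMP195 tumour 3, and it turned to -0.027 with tumour 2 of each group left out. With limma's array weights, which were lowest for TMP195 tumour 2 (0.439) and vehicle tumour 2 (0.612), it was 0.090.

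The promoter of Cd274 is shown because it belongs to the ligand that PD-1 blockade addresses and lets the motif search be read against the letters. The 300-base window runs from 250 bases before to 50 after a RefSeq start of the gene, at chr19:29367188-29367487 on the plus strand of GRCm38.p6, from RefSeq, and the capitals mark GGAAA, the core bound by NFAT factors.
Cd274: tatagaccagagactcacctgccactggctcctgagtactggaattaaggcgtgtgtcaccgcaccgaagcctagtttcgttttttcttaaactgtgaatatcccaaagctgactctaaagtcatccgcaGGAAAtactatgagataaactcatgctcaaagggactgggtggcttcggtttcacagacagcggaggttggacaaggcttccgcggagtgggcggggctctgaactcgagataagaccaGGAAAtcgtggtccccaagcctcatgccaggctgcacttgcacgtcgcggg
Promoter windows were found for 7 of the 10 genes, all but Lag3, Cd28 and Icos. GGAAA, searched on both strands, was in 5 of these 7, and 61.3% of all 32851 promoter windows hold it. The interferon gamma activated sequence TTCNNNGAA was in 0 of the 7 windows, against 8.30% of all windows, and the MEF2 site, bound by the factors that class IIa deacetylases repress, was in 0 of 7 against 3.19%. A match or its lack describes these letters only.

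PD-L2, which binds PD-1 more tightly than PD-L1 does, showed no separation of the groups either. Pdcd1lg2 measured 3.00, 2.93 and 2.62 with vehicle and 2.84, 2.82 and 2.76 with TMP195. All 3 TMP195 tumours fell inside the span of the vehicle tumours. The log2 difference was -0.044 ± 0.12 (SE), with an interval of -0.33 to 0.24 and an exact permutation p = 0.80. It turned to 0.033 without vehicle tumour 1 and to 0.045 with array weights. Values of -0.0044, -0.16 and -0.021 were found when vehicle tumour 2, vehicle tumour 3 or TMP195 tumour 3 was left out, and -0.011 with both tumours 2 left out. Cd274 and Pdcd1lg2 are neighbours on chromosome 19, and their levels had a Pearson r of 0.107 over the 6 tumours. Pdcd1lg2 was dim, at percentile 14.6 of mean intensity over all genes. The part of probe noise in this low r was not tested.

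Pdcd1 itself, the gene of PD-1, was almost level. It measured 4.20, 3.92 and 3.92 with vehicle and 3.94, 4.20 and 4.03 with TMP195. The highest vehicle tumour and the highest TMP195 tumour were alike to the second decimal. TMP195 minus vehicle came to 0.047 ± 0.12 (SE) on the log2 scale, the interval -0.24 to 0.33 and the exact permutation p = 0.50, so the interval spans a fold from 0.848 to 1.26. The sign turned without TMP195 tumour 2 (-0.025) and without both tumours 2 (-0.071), and the value was 2.29e-04 without vehicle tumour 2 or vehicle tumour 3, 0.11 without TMP195 tumour 1 and 0.14 without vehicle tumour 1.

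Ctla4, whose product outcompetes CD28 for shared ligands and is held at high level by regulatory T cells, measured 2.61, 2.84 and 2.25 with vehicle and 2.58, 2.67 and 2.86 with TMP195. Vehicle tumour 3 was the lowest of the 6, and TMP195 tumour 3 was within 0.020 of vehicle tumour 2. The difference in log2 level was 0.14 ± 0.17 (SE), with an interval of -0.26 to 0.53 and an exact permutation p = 0.60. It turned to -0.024 without vehicle tumour 3 and was 0.27 without vehicle tumour 2 and 0.056 when TMP195 tumour 3 was dropped. Array weights gave 0.30, and 0.29 was found with both tumours 2 left out.

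Lag3 encodes a CD4-like receptor that binds MHC class II. It measured 4.01, 3.68 and 3.69 with vehicle and 3.66, 4.20 and 4.02 with TMP195. TMP195 tumour 2 was highest and TMP195 tumour 1 lowest, so the treated tumours enclosed the vehicle ones. Between the group means lay a log2 difference of 0.17 ± 0.17 (SE), with an interval of -0.23 to 0.56 and an exact permutation p = 0.60. It was 0.32 without TMP195 tumour 1, 0.28 without vehicle tumour 1, 0.11 without vehicle tumour 2, 0.049 without TMP195 tumour 2 and -0.0081 without both.

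Tigit came nearest to a separation of the groups. TIGIT binds the poliovirus receptor CD155 and competes with the activating receptor CD226. Tigit measured 4.71, 4.43 and 4.53 with vehicle and 4.88, 4.68 and 4.80 with TMP195. A single crossing kept the groups from parting, since vehicle tumour 1 stood 0.033 above TMP195 tumour 2. The log2 difference was 0.23 ± 0.11 (SE), or 1.17-fold, with an interval of -0.031 to 0.49 and an exact permutation p = 0.20. It stayed between 0.17 and 0.31 as each tumour was left out in turn and was 0.22 without both tumours 2. In limma the unadjusted p was 0.0758 and the adjusted p 1.00. By unadjusted p, Tigit ranked 853 of 19937 genes.

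Vsir, the gene of VISTA, had the smallest spread within groups of the 10 (SD 0.11). It measured 7.85, 7.72 and 7.89 with vehicle and 7.80, 8.03 and 7.86 with TMP195. The values of 5 tumours lay within 0.17 of each other, and TMP195 tumour 2 lay above them. TMP195 minus vehicle came to 0.077 ± 0.10 (SE) on the log2 scale, with an interval of -0.17 to 0.32 and an exact permutation p = 0.50. The value was 0.0087 without TMP195 tumour 2, 0.027 when vehicle tumour 2 was dropped and 0.13 when TMP195 tumour 1 was. Array weights gave 0.0065, and the sign turned without both tumours 2 (-0.041).

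Havcr2 varied far more between tumours than any other of the 10 genes, and the variation did not follow dosing. TIM-3, its product, is carried by exhausted T cells and by dendritic cells and macrophages. Havcr2 measured 7.03, 5.46 and 6.21 with vehicle and 6.01, 7.11 and 5.42 with TMP195. Each group held 1 high, 1 middle and 1 low tumour, and the span from the lowest to the highest was 1.69 on the log2 scale, or 3.22-fold. Only 1.97% of all genes spanned as much, and the spread within groups (SD 0.82) was at percentile 99.1 of all genes. The difference in log2 level was -0.056 ± 0.52 (SE), with an interval of -1.28 to 1.17 and an exact permutation p = 0.90. A change of 2-fold in either direction was therefore within its error. Leaving out vehicle tumour 1 gave 0.34 and leaving out vehicle tumour 2 gave -0.44. The value was 0.030, -0.52 and 0.32 when TMP195 tumour 1, 2 or 3 was left out, and -0.40 with array weights. Without both tumours 2 it was -0.91, in a comparison of 2 tumours with 2. These were the highest TMP195 tumour and the lowest vehicle tumour for Havcr2, so leaving them out could only lower the value. The groups of Havcr2 then did not overlap, beside 28.8% of all genes.

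The promoter window of Havcr2 is shown for the gene that differed most between tumours. It lies at chr11:46454681-46454980 on the plus strand of GRCm38.p6, from RefSeq, and the capitals mark TGTGGT, the core bound by RUNX factors of T cells and myeloid cells.
Havcr2: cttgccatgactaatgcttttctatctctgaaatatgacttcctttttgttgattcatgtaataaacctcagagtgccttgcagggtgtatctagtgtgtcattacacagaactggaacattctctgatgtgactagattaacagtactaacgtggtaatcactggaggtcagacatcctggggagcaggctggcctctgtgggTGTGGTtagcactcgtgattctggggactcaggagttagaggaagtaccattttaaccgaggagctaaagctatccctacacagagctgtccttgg
TGTGGT, searched on both strands, was in the windows of Havcr2, Tigit and Pdcd1lg2, 3 of 7, and in 16.8% of all windows.

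With all 6 tumours weighted alike, the costimulatory receptor gene Cd28 had the largest log2 difference of the 10. Cd28 measured 2.94, 2.99 and 2.94 with vehicle and 3.29, 3.49 and 2.92 with TMP195. The vehicle tumours were within 0.055 of each other, and TMP195 tumours 1 and 2 stood above them while TMP195 tumour 3 was the lowest of all 6. Group means were 2.96 ± 0.030 (SD, n = 3) for vehicle and 3.24 ± 0.29 (SD, n = 3) for TMP195. Between the group means lay a log2 difference of 0.28 ± 0.15 (SE), or 1.21-fold, with an interval of -0.076 to 0.63 and an exact permutation p = 0.40, and 8.78% of all genes differed by at least as much in size. It was 0.15 without TMP195 tumour 2 and 0.17 without both tumours 2. Without TMP195 tumour 3 it was 0.44, but that tumour was the lowest of the 6, so leaving it out could only raise the value. The groups of Cd28 then did not overlap, beside 15.8% of all genes. Over all settings that were fitted, the adjusted p of Cd28 in limma was at least 0.963. The order of the genes depended on the setting: array weights gave Cd28 0.19, smaller in size than Havcr2 (-0.40), Ctla4 (0.30) and Tigit (0.26), and a pseudocount of 16 gave it 0.10, below Tigit (0.14) and Cd274 (0.13).

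Icos, the second costimulatory receptor and a mark of activated and follicular helper T cells, measured 3.90, 3.78 and 3.78 with vehicle and 3.68, 3.94 and 3.95 with TMP195. TMP195 tumour 1 was the lowest and the other 2 treated tumours the highest. The log2 difference was 0.038 ± 0.11 (SE), with an interval of -0.22 to 0.29 and an exact permutation p = 0.80. The sign turned when TMP195 tumour 2 (-0.0059), TMP195 tumour 3 (-0.0065) or both tumours 2 (-0.028) were left out. The value was 0.13 without TMP195 tumour 1, 0.080 without vehicle tumour 1, 0.015 without vehicle tumour 2 and 0.018 without vehicle tumour 3.

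**Figure D1:**
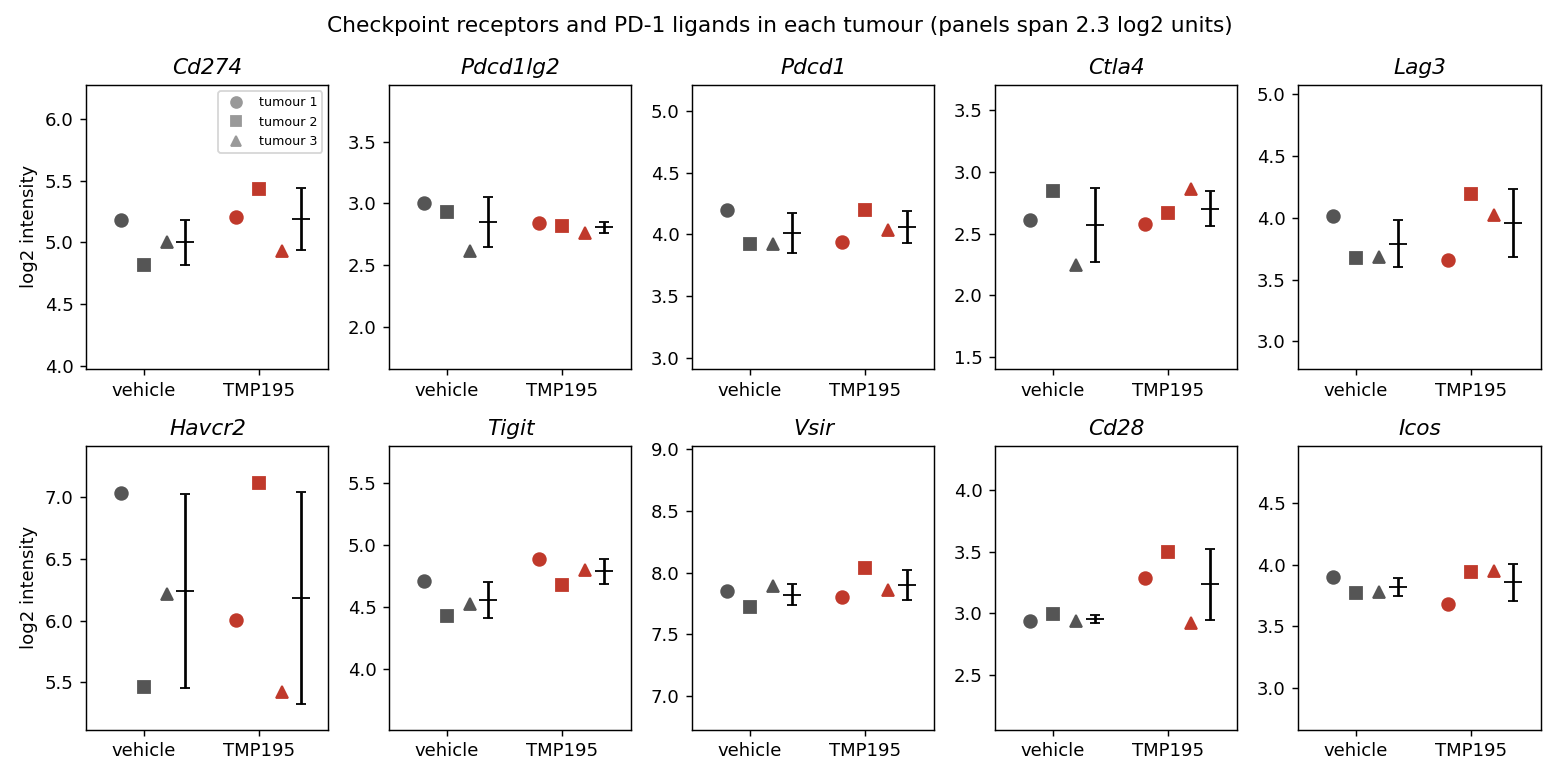
Log2 intensity (vertical axis, each panel spanning the same log2 range) of the 10 checkpoint genes in 3 vehicle and 3 TMP195 tumours, 1 point per tumour, with the group mean and SD (n = 3) at the right of each group. The groups overlap in all 10 panels, and Havcr2 has the widest scatter, from 5.42 to 7.11.

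As a set, 8 of the 10 genes had a higher mean under TMP195 and 2, Pdcd1lg2 and Havcr2, a lower one. Their median log2 difference was 0.11, beside -0.0014 for all genes, of which 49.5% were higher. By role, 1 of 2 ligands, 5 of 6 inhibitory receptors and both costimulatory receptors had the higher mean. The groups did not overlap in 0 of the 10 genes, beside 1332 of all genes, or 6.68%. None of the 10 (0) differed by 1.5-fold or more, as 1.27% of all genes did. The half-width of the 95% interval ran from 0.24 for Vsir to 1.22 for Havcr2, with a median of 0.32 beside 0.30 over all genes.

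The count of 8 varied with the tumours included, and ran from 6 to 10 when 1 tumour was left out in turn. Without TMP195 tumour 2, 6 of 10 genes were higher and the median was 0.029. With both tumours 2 left out, 3 of 10 were higher, Ctla4, Tigit and Cd28, and the median was -0.019. Without vehicle tumour 1 all 10 were higher, with a median of 0.22. Leaving out vehicle tumour 2 or 3 gave a median of 0.062 and 0.064, and leaving out TMP195 tumour 1 or 3 gave 0.15 and 0.12. Array weights gave a median of 0.068. A pseudocount of 16, added before the log, shrinks the differences of dim probes: the median was then 0.053, with 0.083 for Lag3, 0.035 for Ctla4, 0.023 for Pdcd1, 0.019 for Icos and -0.015 for Pdcd1lg2.

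**Figure D2:**
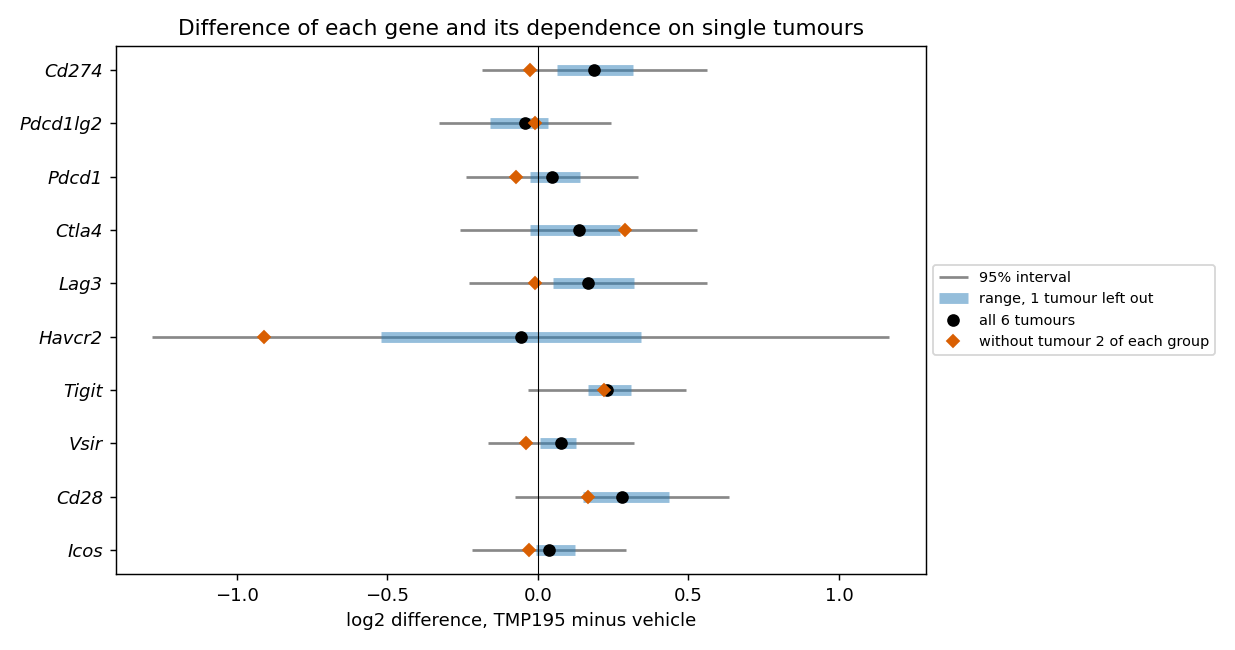
Log2 difference in intensity, TMP195 minus vehicle (horizontal axis), for each gene: black points are the values from all 6 tumours, grey lines their 95% intervals, blue bars the range when 1 tumour is left out, and orange diamonds the values with tumour 2 of each group left out. All 10 grey lines cross 0, Tigit and Cd28 keep one sign throughout, and Havcr2 runs from -0.91 to 0.34.

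Tumour by tumour, the average of the 10 checkpoint genes was highest in TMP195 tumour 2 and vehicle tumour 1. Each gene was centred on its mean over the 6 tumours, and the 10 centred log2 values were averaged. The averages were 0.13, -0.16 and -0.13 with vehicle and -0.026, 0.24 and -0.059 with TMP195. In vehicle tumours 1 and 2 and TMP195 tumours 2 and 3, Havcr2 lay furthest from its mean, at 0.82, -0.75, 0.90 and -0.79. It therefore weighed most in those averages, whereas the counts below weigh each gene alike. TMP195 tumour 2 held the highest value of the 6 for 6 of the 10 genes, where it did so for 25.4% of all genes, and it exceeded the gene's mean in 9 of 10. Vehicle tumour 1 exceeded the mean in 7 of 10, while vehicle tumours 2 and 3 each did so in 2 of 10. Vehicle tumour 2 was the lowest of the 6 for 4 of the 10 genes and for 18.7% of all genes.

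Over the 6 tumours, 40 of the 45 pairs of checkpoint genes had a positive correlation, with a median Pearson r of 0.336. The points are the same 6 arrays for every pair, and TMP195 tumour 2 is high in most of the 10 genes. The highest r values were 0.931 for Lag3 with Icos, 0.909 for Pdcd1 with Lag3, 0.847 for Cd274 with Havcr2 and 0.807 for Cd274 with Cd28. Ctla4 and Havcr2 had the lowest, -0.376. Cd28, Ctla4 and Icos stand next to each other on chromosome 1, as a neighbourhood of related receptor genes. Their r was 0.0268 for Cd28 with Ctla4, 0.369 for Ctla4 with Icos and -0.0076 for Cd28 with Icos. These genes were dim, at percentiles 18.0 (Cd28), 12.6 (Ctla4) and 27.5 (Icos) of mean intensity, and the part of probe noise was not tested. Among 13390 genes at or above the 30th percentile of mean intensity, the patterns most like that of Cd274 over the 6 tumours were those of Ctdsp2, Ldlrad4 and Abcc5 (r = 0.997, 0.997 and 0.995). For Pdcd1 they were Ube4a, Arid5b and Dok4 (r = 0.990, 0.987 and 0.983). With 6 points and so many genes searched, values of this size describe the ranking only.

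Markers of the cells that carry these receptors were set beside them. T cell markers, among them the CD3 chains, CD4 and CD8, were measured for 14 of 15 listed genes. TMP195 tumours had the higher mean in 5 and the lower in 9 (median log2 difference -0.046), and 0 passed an adjusted p of 0.05 in limma. Their mean centred level was 0.066, -0.066 and 0.026 with vehicle and -0.12, 0.17 and -0.076 with TMP195. TMP195 tumour 2 was highest here too, and TMP195 tumour 1 lowest. Cd3g differed by 0.44 ± 0.25 (SE), Cd8b1 by 0.18 ± 0.097 and Cd3d by -0.21 ± 0.13. Without TMP195 tumour 2, 2 of the 14 were higher and Cd3g differed by 0.16. Without both tumours 2, 3 were higher, the median was -0.089 and Cd3g differed by 0.032. The defining marker Cd3e averaged 5.46 under vehicle and 5.50 under TMP195. Over the 6 tumours the T cell mean had an r of 0.861 with Havcr2, 0.823 with Vsir, 0.761 with Pdcd1 and 0.692 with Lag3, but -0.196 with Tigit and -0.248 with Ctla4. The 6 arrays are shared by all these values. The mean weights its 14 genes alike. Several were dim, such as Trat1, Cd3d and Zap70 at percentiles 4.50, 11.6 and 14.2 of mean intensity over all genes. Cd3e, Cd4 and Cd3g were brighter, at percentiles 45.9, 41.5 and 40.2.

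When the T cell mean of each tumour was subtracted, Tigit differed by 0.25, Cd28 by 0.30, Cd274 by 0.20 and Pdcd1 by 0.064 on the log2 scale. Vsir, at 0.094, was then the 1 gene of 10 whose groups did not overlap, where 5.59% of all genes did not overlap after the same subtraction. The part of T cell content in the differences was not tested. Macrophage markers were higher in 1 and lower in 12 of 13, with a median of -0.12. Their mean centred level was 0.044, -0.011 and 0.21 with vehicle and -0.037, 0.027 and -0.23 with TMP195, highest in vehicle tumour 3 and lowest in TMP195 tumour 3. With all 6 tumours the groups overlapped in each of the 13. Without TMP195 tumour 2 they did not overlap in 8, beside 15.2% of all genes, and without both tumours 2 in 10, beside 28.8%, with medians of -0.21 and -0.25 and 0 genes past an adjusted p of 0.05 in limma. Of the checkpoint genes that myeloid cells also express, Havcr2 had an r of 0.498 with this mean, Cd274 0.200, Vsir 0.195 and Pdcd1lg2 -0.231. The lowest of the 10 was -0.840, for Ctla4. After subtraction of the macrophage mean the groups of 3 genes, Cd274, Vsir and Cd28, did not overlap, where 14% of all genes did not. This mean ran lower under TMP195, so subtracting it raised the difference of every gene alike. Cd274 moved from 0.19 to 0.35, Vsir from 0.077 to 0.24 and Cd28 from 0.28 to 0.44. Before the subtraction 6.68% of all genes did not overlap. The part of macrophage content in the differences was not tested. Dendritic cell markers were higher in 5 and lower in 5 of 10. Cd209a, a lectin of dendritic cells, differed by -0.52 ± 0.11 (SE; limma unadjusted p = 0.0024) and did not pass an adjusted p of 0.05. It was the 1 dendritic cell marker of 10 whose groups did not overlap, beside 6.68% of all genes. Tumour epithelium markers were higher in 6 and lower in 2 of 8 with a median of 0.028. All 8 epithelial genes listed were measured. Dendritic cell markers were higher in 3 of 10 and epithelial markers in 6 of 8 without both tumours 2, and Cd209a differed by -0.37.

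**Figure D3:**
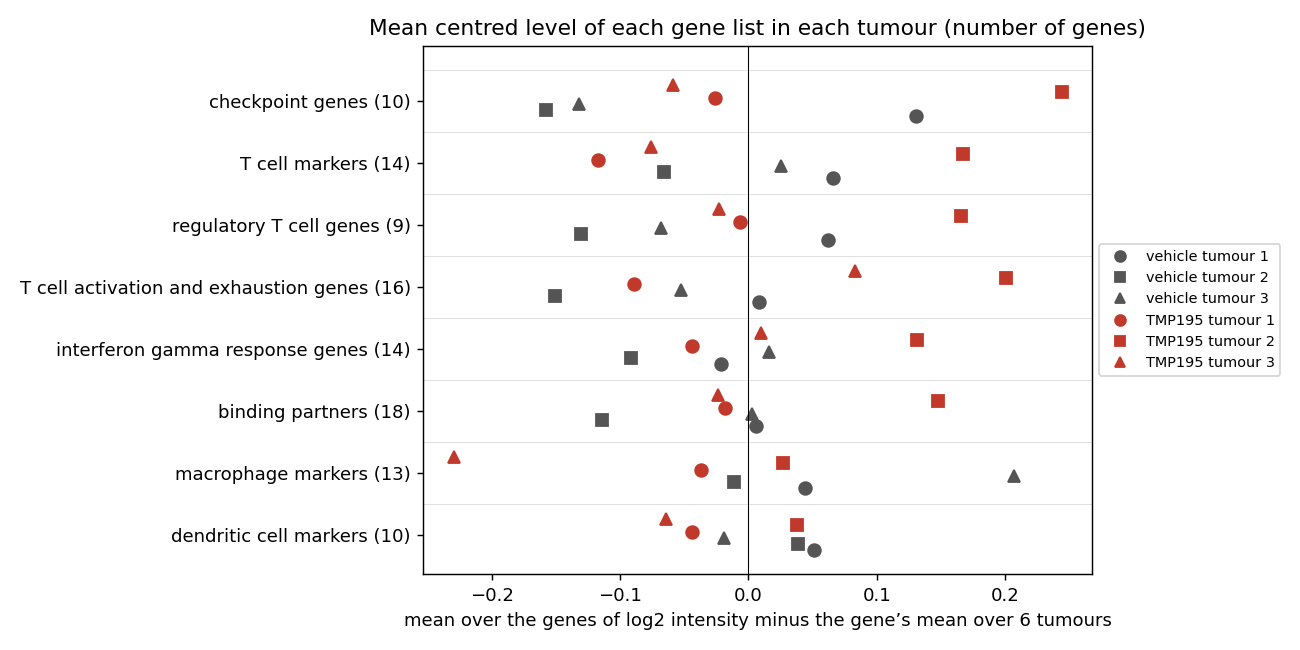
Mean over the genes of a list of the centred log2 intensity (horizontal axis), for the 10 checkpoint genes and 7 other lists (vertical axis, number of genes in brackets), 1 point per tumour. TMP195 tumour 2 is the highest point for the checkpoint genes (0.24) and the T cell markers (0.17), and the macrophage markers run instead from -0.23 in TMP195 tumour 3 to 0.21 in vehicle tumour 3. Havcr2, at 0.82 in vehicle tumour 1 and 0.90 in TMP195 tumour 2, weighs most in the checkpoint points of those tumours.

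The partners that these receptors and ligands bind were measured for 18 of 19 listed genes. A higher mean under TMP195 was found for 14 and a lower one for 4, with a median log2 difference of 0.076, and 0 passed an adjusted p of 0.05 in limma. The CD28 and CTLA-4 ligands Cd80 and Cd86 differed by 0.068 ± 0.13 (SE) and 0.061 ± 0.21. Icosl, the ligand of ICOS, differed by -0.043 ± 0.088. On the TIGIT axis, the ligand genes Pvr and Nectin2 differed by 0.11 ± 0.12 and 0.064 ± 0.083, and the competing receptors Cd226 and Cd96 by 0.066 ± 0.16 and 0.30 ± 0.20. Lgals9, the galectin that binds TIM-3, differed by 0.23 ± 0.24, and Hmgb1, another ligand of TIM-3, by 0.11 ± 0.081. The groups did not overlap for Nectin2 and Hmgb1, 2 of 18 or 11.1%, beside 6.68% of all genes. Selplg, a VISTA ligand on leukocytes, differed by 0.16 ± 0.15. With both tumours 2 left out, 9 of the 18 partners were higher, with a median of 0.011, and 7 did not overlap, beside 28.8% of all genes. Cd86 then differed by -0.30, Lgals9 by -0.19, Cd226 by -0.047, Selplg by -0.0042 and Pvr by 0.051. Cd96 differed by 0.067 when vehicle tumour 1 was left out and by 0.37 without both tumours 2.

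Regulatory T cell genes were measured for all 9 listed, with 6 higher and 3 lower and a median of 0.13. Foxp3, the factor that defines these cells, differed by -0.035 ± 0.18 (SE), while Tnfrsf4, the costimulatory receptor OX40, differed by 0.23 ± 0.11. Tnfrsf4 was the 1 gene of these 9 (11.1%) whose groups did not overlap, beside 6.68% of all genes. Genes of T cell activation and exhaustion were higher in 13 and lower in 3 of 16, with a median of 0.071. The nuclear receptor genes Nr4a2 and Nr4a1, induced by receptor signalling in many cell types, differed by 0.38 ± 0.12 (limma unadjusted p = 0.0173, adjusted p 1.00) and 0.48 ± 0.26, and Batf, an activation factor, by -0.17 ± 0.10. Tox, a factor of the exhausted state, differed by 0.46 ± 0.29. The effector genes Ifng, Prf1 and Gzmb differed by 0.065 ± 0.13, 0.013 ± 0.16 and 0.19 ± 0.46. Gzmb ran from 4.05 in TMP195 tumour 1 to 6.02 in TMP195 tumour 2, and its difference was -0.475 without both tumours 2. Tox was 0.14 without TMP195 tumour 2 and -0.034 without both tumours 2, while Nr4a2 was 0.38 and Tnfrsf4 0.25 without both. Nr4a1 was 0.26 without TMP195 tumour 1 and 0.74 without both tumours 2. Foxp3 turned to 0.17 without vehicle tumour 1 and was -0.14 without both tumours 2. A higher mean was left in 4 of the 9 regulatory genes and 6 of the 16 activation genes without both tumours 2, with medians of -0.019 and -0.054.

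Interferon gamma response genes, which include the pathway that induces Cd274, were higher in 10 and lower in 4 of 14, with a median of 0.069. Cxcl10 and Cxcl9, chemokines that draw T cells, differed by 0.58 ± 0.28 (SE) and 0.24 ± 0.20, and Ido1, which breaks down tryptophan, by -0.40 ± 0.27. Cxcl10 was highest in TMP195 tumour 2, at 5.09, and between 3.70 and 4.24 in the other 5 tumours, and its difference was 0.28 without that tumour. Without both tumours 2, Cxcl10 differed by 0.21 and Cxcl9 by -0.079, and 7 of the 14 genes were higher, with a median of 0.010. Ido1 differed by -0.12 without vehicle tumour 3 and by -0.31 without both tumours 2. Irf1, the transcription factor that carries the signal to Cd274, differed by 0.087 ± 0.098. Signalling proteins below the receptors were higher in 11 and lower in 9 of 20, with a median of 0.021. There Dok2 and Vav1, an adaptor and an exchange factor of leukocytes, differed by -0.24 ± 0.12 and -0.20 ± 0.12, and Grap2, the adaptor GADS that CD28 engages, by 0.13 ± 0.085. Dok2 was -0.13 without TMP195 tumour 2, and 9 of the 20 were higher without both tumours 2, with a median of -0.013. Other inhibitory receptors and ligands were higher in 12 and lower in 7 of 19, with a median of 0.031. Among them Klrg1 differed by 0.26 ± 0.21, Cd72 by 0.36 ± 0.30 and Cd101 by 0.17 ± 0.14. Without TMP195 tumour 2, 4 of the 19 were higher, with a median of -0.051, and Cd72 differed by 0.032, Klrg1 by 0.48 and Cd101 by 0.15. Without both tumours 2, 4 were again higher, with a median of -0.086, and Cd72 differed by -0.0020. No gene of any of these lists passed an adjusted p of 0.05 in limma. With all 6 tumours, outside the partner list, at most 1 gene of each list had groups that did not overlap, beside 6.68% of all genes.

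The wide scatter of Havcr2 was followed to other genes after its values had been seen. Its pattern over the 6 tumours was most like those of Slc7a8, an amino acid transporter gene (r = 0.993), Iqank1 (r = 0.989) and Cd4, the coreceptor of helper T cells (r = 0.986). Cd4 measured 5.46, 4.65 and 4.96 with vehicle and 4.83, 5.57 and 4.67 with TMP195. Vehicle tumour 1 and TMP195 tumour 2 were high and vehicle tumour 2 and TMP195 tumour 3 low in both genes. Cd4 is also 1 of the 14 genes in the T cell mean given above. It spanned 0.92 on the log2 scale and Havcr2 1.69. The neighbours of Havcr2 on chromosome 11 did not share the pattern, with an r of -0.521 for Med7 and -0.645 for Fam71b. Only the 6 most similar genes were kept from the search. Cd3e and Foxp3 were not among them, which says little about their likeness to Havcr2.

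**Figure D4:**
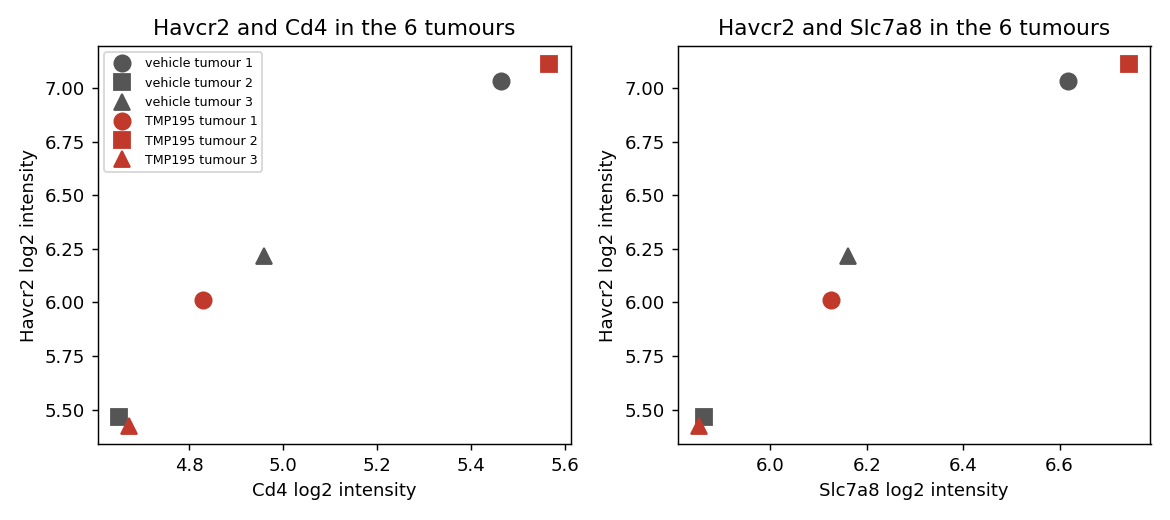
Havcr2 log2 intensity (vertical axis) against the log2 intensity of Cd4 (left) and Slc7a8 (right) in the 6 tumours, 1 point per tumour. Each panel puts vehicle tumour 1 and TMP195 tumour 2 at the top right and vehicle tumour 2 and TMP195 tumour 3 at the bottom left; both genes were chosen for this likeness.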

How the data were processed

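Each tumour has 1 column of array intensity deposited by the authors. RMA and Affymetrix Power Tools are the tools that the submitters' processing notes name, without versions. The scale is not stated. All values exceed 0 and their column medians are far above any log2 range, so they were taken as linear, and log2 was computed here from the deposited intensity. Arrays have no sequencing depth, and their number limits the precision. No detection calls were used.

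The platform annotation gave 1 gene symbol to 21784 of 27359 probe sets, several to 1620 and none to 3955. Entrez IDs were looked up in RefSeq (GRCm38.p6), which changed 0 symbols. Of several probe sets of a gene the one with the highest mean was kept, for 19937 genes. All 6 tumours entered 1 limma fit (limma 3.58.1, R 4.3.3, lmFit and eBayes, constant prior, two-sided, no covariates), with p-values adjusted by Benjamini-Hochberg over the 19937 genes. Single genes were also tested by exact permutation of the tumours. The 3 tumours of a group are separate mice.

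The members, lists and alternatives were chosen with earlier results of these data known. Named genes were all members, up to 3 genes per other list by unadjusted p, and 7 binding partners. Cd3e, Foxp3, Tox, Ifng, Prf1, Gzmb, Irf1, Cd4 and the genes like Havcr2 were chosen after their values were seen. Same-numbered tumours did not deviate together (correlations of -0.212, -0.0627 and -0.0970), so the numbers were not taken as pairs. Across numbers, positive correlations were found for vehicle tumour 1 with TMP195 tumour 2 (0.249) and vehicle tumour 2 with TMP195 tumour 3 (0.199). Vehicle tumour 3 with TMP195 tumour 1 gave 0.340, and the other combinations were negative. What these tumours share was not tested. The fit was tested on simulated data. Python 3.11.15, pandas 2.3.3 and matplotlib 3.10.9 searched promoters and drew plots. The fit was repeated with a replicate block, with a trended and robust prior, after centring each array or cyclic loess, without genes under the 30th percentile, with array weights, with a pseudocount of 16, with probe sets averaged, at an adjusted p of 0.10 and with tumours left out; for the other lists, tumours were left out after their values had been seen.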

Additional observations from a re-analysis of the deposited data

How the results depend on the processing

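No alternative gave an adjusted p under 0.05 to any gene in limma, nor did a threshold of 0.10, so the count of called genes was 0 throughout. The replicate number as a block (replicate block; median 0.11, 0 genes called), the trended robust prior, the mean of probe sets and the filter on dim genes cannot move a checkpoint gene's difference. Of the 110 differences recomputed under the other alternatives, 96 had the sign of the comparison of all 6 tumours and 14 the opposite one. Cyclic loess gave 1 checkpoint gene without overlap of the groups, Tigit, beside 7.4% of all genes. Array weights turned Pdcd1lg2 to 0.045 and moved Cd274 to 0.090, Ctla4 to 0.30, Havcr2 to -0.40, Vsir to 0.0065 and the median to 0.068. A pseudocount of 16 moved the median to 0.053, Tigit to 0.14 and Cd28 to 0.10, and centring each array moved Pdcd1lg2 to -0.029. Leaving out genes below the 30th percentile kept 5 of the 10, of which 4 were higher, by construction. With vehicle tumour 2 and TMP195 tumour 2 left out, 3 of 10 were higher, 2 had no overlap, Havcr2 and Tigit, beside 28.8% of all genes, the median was -0.019, and Cd274 was -0.027, Pdcd1 -0.071, Lag3 -0.0081, Vsir -0.041 and Icos -0.028. Leaving out each tumour in turn gave ranges of 0.065 to 0.32 for Cd274, -0.16 to 0.033 for Pdcd1lg2, -0.025 to 0.14 for Pdcd1, -0.024 to 0.27 for Ctla4, 0.049 to 0.32 for Lag3, -0.52 to 0.34 for Havcr2, 0.17 to 0.31 for Tigit, 0.0087 to 0.13 for Vsir, 0.15 to 0.44 for Cd28 and -0.0065 to 0.13 for Icos. It gave 6 to 10 genes higher, 0 to 2 without overlap, beside 14% to 18.5% of all genes, and a median of 0.029 to 0.22. The cause of these turns was not tested. With 3 arrays a group, differences smaller than about the half-width of the interval, a median of 0.32, could not be resolved, and the filter on dim genes removed Pdcd1lg2, Ctla4, Cd28, Icos and Lag3.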
